A study of Mus musculus with 12 samples.

Results

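The EGR, IER and NR4A families and Csrnp1 are immediate early genes, which cells transcribe within minutes of a stimulus without new protein synthesis. The 10 genes described here were taken by name, at a time when earlier results of these data were known. They are Egr1, Egr2, Egr3, Ier2, Ier3, Ier5, Nr4a1, Nr4a2, Nr4a3 and Csrnp1. All 10 had a probe set of their own among the 15780 probe sets that carried a gene symbol. Primary hepatocytes, which make up most of the liver's mass, were isolated from male C57BL/6J mice aged 8 weeks that were either wild type (WT) or knockout (KO) for Cnot6l. Cnot6l encodes a catalytic subunit of CCR4-NOT, the complex that trims mRNA poly(A) tails and thereby starts decay. Every cell preparation gave input RNA and RNA precipitated with an antibody against CNOT6L (IP). The 4 groups of 3 arrays were WT IP, KO IP, KO input and WT input, and the KO cells were the negative control of the precipitation. Titles call the replicates biological, and whether a preparation pooled animals, or in which cells the knockout was made, is not stated.

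Immediate early transcripts are switched on mainly by serum response factor, which binds CArG boxes with its ternary complex partners, and by CREB, which binds cAMP response elements. Many of their mRNAs are short-lived, and rapid deadenylation is a known step in the removal of such messages. EGR proteins are zinc finger transcription factors held in check by the corepressors NAB1 and NAB2. NR4A proteins are orphan nuclear receptors that act without a known physiological ligand and that promote gluconeogenic gene expression in mouse liver. In liver, handling and isolation of cells is itself known to induce immediate early genes.

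The promoters of 6 members are shown with matches to elements known from immediate early genes, which were found in some of them and not in others. Each stretch holds the 250 bases before a start annotated by RefSeq in GRCm38.p6, and the bases are numbered backwards from -1, the base next to the start. The search covered promoter windows of 7 of the 10 members and none of Egr1, Egr3 or Ier2. It left out any member window on a chromosome that was set aside. The promoters of Egr1, Egr3 and Ier2 are not described. Capitals mark matches, on either strand, to the CArG box, to the cAMP response element TGACGTCA or its core TGACG, to the EGR site GCGNGGGCG, or to the NR4A monomer site AAAGGTCA. The core lies within the full cAMP response element, so matches to the 2 can overlap. Ier3 (chr17:35821463-35821712, plus strand), Ier5 (chr1:155099637-155099886, minus strand) and Csrnp1 (chr9:119983024-119983273, minus strand, the most downstream of 4 annotated starts) are shown for their WT IP values. All 3 WT IP arrays of each gene lay above its 9 other arrays, which describes these arrays and is not a call. Egr2 (chr10:67537680-67537929, plus strand, the most downstream of 5 starts) is shown for its CArG box. Nr4a1 (chr15:101266596-101266845, plus strand) and Nr4a3 (chr4:48045055-48045304, plus strand) are shown as the family in which the cAMP core recurs.
Ier3: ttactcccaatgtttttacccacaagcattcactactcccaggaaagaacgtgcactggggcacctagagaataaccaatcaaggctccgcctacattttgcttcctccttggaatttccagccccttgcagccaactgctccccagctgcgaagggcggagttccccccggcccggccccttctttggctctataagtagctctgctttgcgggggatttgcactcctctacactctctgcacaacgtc
Ier5: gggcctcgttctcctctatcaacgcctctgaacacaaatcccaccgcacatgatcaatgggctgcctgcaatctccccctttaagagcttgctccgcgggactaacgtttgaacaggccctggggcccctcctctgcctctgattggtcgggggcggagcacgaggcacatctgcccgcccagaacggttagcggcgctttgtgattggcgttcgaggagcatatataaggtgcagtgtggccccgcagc
Csrnp1: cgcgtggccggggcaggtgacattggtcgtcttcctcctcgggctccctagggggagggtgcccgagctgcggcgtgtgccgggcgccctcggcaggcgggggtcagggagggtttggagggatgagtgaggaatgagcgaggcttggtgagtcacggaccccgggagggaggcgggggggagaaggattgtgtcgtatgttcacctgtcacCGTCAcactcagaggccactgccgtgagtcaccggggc
Egr2: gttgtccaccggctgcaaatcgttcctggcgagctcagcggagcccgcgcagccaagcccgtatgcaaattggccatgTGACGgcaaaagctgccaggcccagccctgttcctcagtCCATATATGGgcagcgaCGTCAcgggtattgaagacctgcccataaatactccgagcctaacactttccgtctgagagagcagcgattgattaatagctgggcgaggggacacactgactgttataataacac
Nr4a1: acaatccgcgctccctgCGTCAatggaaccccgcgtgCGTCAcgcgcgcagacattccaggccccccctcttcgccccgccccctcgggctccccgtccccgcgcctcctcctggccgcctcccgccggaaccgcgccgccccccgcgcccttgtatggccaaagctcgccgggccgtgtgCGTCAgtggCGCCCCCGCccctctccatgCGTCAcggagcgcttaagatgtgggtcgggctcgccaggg
Nr4a3: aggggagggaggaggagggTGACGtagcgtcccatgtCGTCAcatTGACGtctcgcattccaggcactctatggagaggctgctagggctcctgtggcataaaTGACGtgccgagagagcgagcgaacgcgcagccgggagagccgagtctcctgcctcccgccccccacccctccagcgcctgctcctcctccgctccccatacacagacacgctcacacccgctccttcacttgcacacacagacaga

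The promoters of Nr4a1, Nr4a2 and Nr4a3 each held 4 matches to the TGACG core. Of the 32851 promoter stretches of this length in the RefSeq table, 17.8% held at least 1 core match and 0.137% held 4 or more. Nr4a1 and Nr4a2 also held an EGR site each, at -60 to -52 in Nr4a1 and at -74 to -66 in Nr4a2, against 4.7% of all stretches. G and C made up 74.4% of the Nr4a1 stretch, 80% of Nr4a2 and 63.6% of Nr4a3, against a median of 52.4% over all stretches. The shares of stretches with a match were not adjusted for this. The printed Egr2 stretch held a CArG box at -133 to -124, a motif found in 1.47% of all stretches, and core matches at -172 to -168 and -116 to -112. The printed Csrnp1 stretch held 1 core match, at -38 to -34, and none of these letters was found in the Ier3 and Ier5 stretches. A full cAMP response element was found in 1.55% of all stretches and an NR4A monomer site in 1.34%. Neither was found in the member stretches that were searched, which include none of Egr1, Egr3 or Ier2. These matches describe letters in a window and say nothing of binding.

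The values are log2 array signals as deposited, and a level is not compared between genes. Array medians lay between 6.31 and 6.45 in every group. The IP arrays differed from the input arrays in technical measures, of which the Gapdh gap and the poly-A controls had similar ranges in both genotypes. The SD over an array's values was 2.29 to 2.42 in WT IP and 2.19 to 2.37 in KO IP, and lower in KO IP within each number. It was 2.53 to 2.59 in WT input and 2.54 to 2.61 in KO input. Within a preparation, Gapdh's 3′ to 5′ signal gap was 0.85 to 1.95 wider in the IP, and poly-A control transcripts were 4.01 to 5.41 higher there. The part of these measures in the results was not tested. Cnot6l itself averaged 9.23 ± 0.11 in KO input and 9.02 ± 0.54 in WT input (SD, n = 3 each). Where its probes lie relative to the deleted part is not stated, so this value checks nothing about the genotype labels, on which every direction below rests. All 10 hepatocyte markers lay above the filter on dim probe sets, with Alb at 14.5 to 14.9 in the group means. Of the 9 macrophage markers Cd68 (10.6 to 11.9 in the group means) and Csf1r (5.59 to 6.07) lay above it. Clec4f, a marker of Kupffer cells, and Adgre1, a marker of macrophages more widely, averaged below it over the 12 arrays. They lay at 5.62 to 5.72 in the IPs and 4.63 to 5.16 in the inputs. Above it lay 5 of 8 stellate, 3 of 8 endothelial, 2 of 5 cholangiocyte and 1 of 5 blood cell markers, and the part of such cells in the results was not tested. In bulk RNA, fewer cells of a type and less RNA per cell cannot be told apart.

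A gene was tested if it averaged at least 5.57 over the 12 arrays (the 40th percentile, with controls and unnamed probe sets included), which left 9496 genes and 7 of the 10 members. Egr2, Nr4a2 and Nr4a3 lay below this filter, with means of 4.08, 5.35 and 5.47, and Egr3 passed it narrowly, with a mean of 5.81. Egr3 averaged 6.22 in WT IP and 6.01 in KO IP, against 5.61 in WT input and 5.40 in KO input. Its place among the tested genes thus rests on its IP values. Adjusted p-values come from limma (two-sided, Benjamini-Hochberg over all genes tested) and a call needs an adjusted p under 0.05. For the 3 members below the filter the fit covered all 15780 genes.

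**Figure D1:**
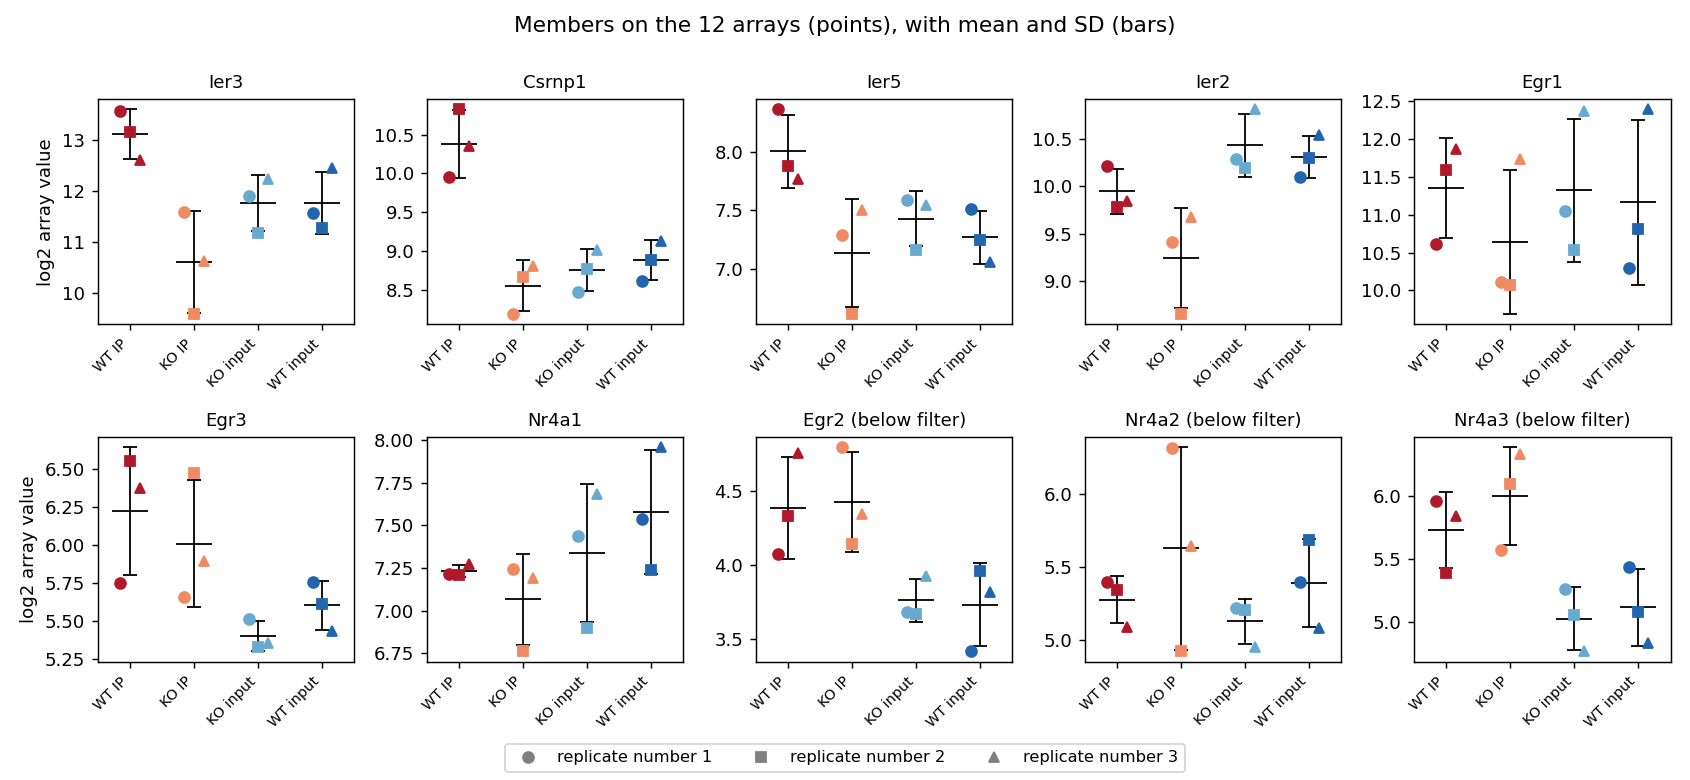
Log2 array value of each of the 10 genes on the 12 arrays. Points are arrays, with the shape giving the replicate number, and bars give the mean and SD of the 3 arrays of a group. In the Ier3, Csrnp1 and Ier5 panels all 3 WT IP points lie above the 9 other points, and in the Ier2 panel the 3 KO IP points lie below the 9 others.

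The comparison of WT IP with KO IP asks which transcripts the antibody recovered more of where CNOT6L was present. Csrnp1 and Ier3 had the largest differences among the members, 3.54-fold and 5.70-fold higher in WT IP. Csrnp1 encodes a cysteine- and serine-rich nuclear protein first found as a gene induced by axin, and Ier3 encodes a short-lived protein, also called IEX-1, that modulates cell survival and NF-κB and ERK signalling.

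Csrnp1 had values of 9.96, 10.83 and 10.35 in WT IP and of 8.19, 8.67 and 8.80 in KO IP. Its values were 8.48, 8.77 and 9.01 in KO input and 8.62, 8.89 and 9.13 in WT input. All 3 WT IP arrays thus lay above every other array, and the 3 remaining groups overlapped. Csrnp1 rose in WT IP against KO IP by 1.83 ± 0.31 on the log2 scale (SE; adjusted p = 0.0368), and the differences within replicate numbers were 1.77, 2.16 and 1.55. With the replicate number as a block its adjusted p was 0.00141. The call without a block was a narrow one. It was lost in 11 of the 12 fits that left out 1 array (adjusted p of 0.0617 to 0.207) and held without WT IP replicate 1 (adjusted p = 0.0487).

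Ier3 had values of 13.58, 13.16 and 12.61 in WT IP and of 11.59, 9.60 and 10.63 in KO IP. The inputs lay mostly between, with 11.91, 11.18 and 12.25 in KO input and 11.58, 11.27 and 12.46 in WT input. All 3 WT IP arrays lay above the 9 others, and KO IP reached into the range of the inputs on 1 array. The WT IP minus KO IP difference of Ier3 was 2.51 ± 0.51 (SE), with differences of 1.99, 3.56 and 1.98 within numbers. It did not pass without a block (adjusted p = 0.105) and passed with the number as a block (adjusted p = 0.00995). Ier3 ranked 17th from the highest of the 9496 genes in this difference, and Csrnp1 ranked 72nd.

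Ier5 and Ier2 had smaller differences with no overlap between the precipitates. Ier5, which encodes a nuclear protein that acts on heat shock factor 1, had 8.36, 7.88 and 7.77 in WT IP and 7.29, 6.61 and 7.51 in KO IP. Its inputs were 7.59, 7.16 and 7.54 in KO and 7.51, 7.24 and 7.06 in WT. As for Ier3 and Csrnp1, all 3 WT IP arrays of Ier5 exceeded the 9 others, a pattern that 2.40% of the 9496 genes showed. The WT IP minus KO IP difference of Ier5 was 0.87 ± 0.31 (SE; adjusted p = 0.612, and 0.0861 with the block).

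Ier2, which encodes a nuclear protein related in sequence to IER5, had 10.22, 9.78 and 9.85 in WT IP and 9.41, 8.65 and 9.67 in KO IP. Its inputs were higher, with 10.30, 10.20 and 10.82 in KO and 10.10, 10.30 and 10.54 in WT. Here the KO IP arrays stood apart, all 3 below the 9 other arrays, as in 1.23% of all genes tested. The WT IP minus KO IP difference of Ier2 was 0.70 ± 0.32 (SE; adjusted p = 0.925, and 0.191 with the block).

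The EGR and NR4A genes overlapped between the precipitates. Egr1, a growth factor induced activator, had 10.61, 11.60 and 11.87 in WT IP and 10.11, 10.07 and 11.74 in KO IP, a difference of 0.72 ± 0.66 (SE; 95% interval -0.72 to 2.16). Egr3 had 5.75, 6.55 and 6.37 in WT IP and 5.66, 6.47 and 5.90 in KO IP, a difference of 0.21 (95% interval -0.45 to 0.88). Nr4a1, which encodes the nuclear receptor NUR77, had 7.22, 7.21 and 7.28 in WT IP and 7.25, 6.76 and 7.19 in KO IP. Its difference of 0.17 had a 95% interval of -0.49 to 0.82, so a rise of the size seen for Csrnp1 or Ier3 lies outside that interval. The dim Egr2, Nr4a2 and Nr4a3 had differences of -0.04, -0.35 and -0.27, none of which passed.

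Of the 7 tested members 7 had positive values in WT IP minus KO IP, with a median of 0.72, where 54.1% of all genes were positive with a median of 0.04. Without a block 1 member, Csrnp1, was called higher and 0 lower, against 0.253% of all genes called higher. With the block 2 members were called higher, against 2.33% of all genes. At an unadjusted p under 0.05, 3 members were higher, against 4.78% of all genes. The precipitates did not overlap for 4 members, each of them higher in WT IP, against 5.44% of all genes.

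**Figure D2:**
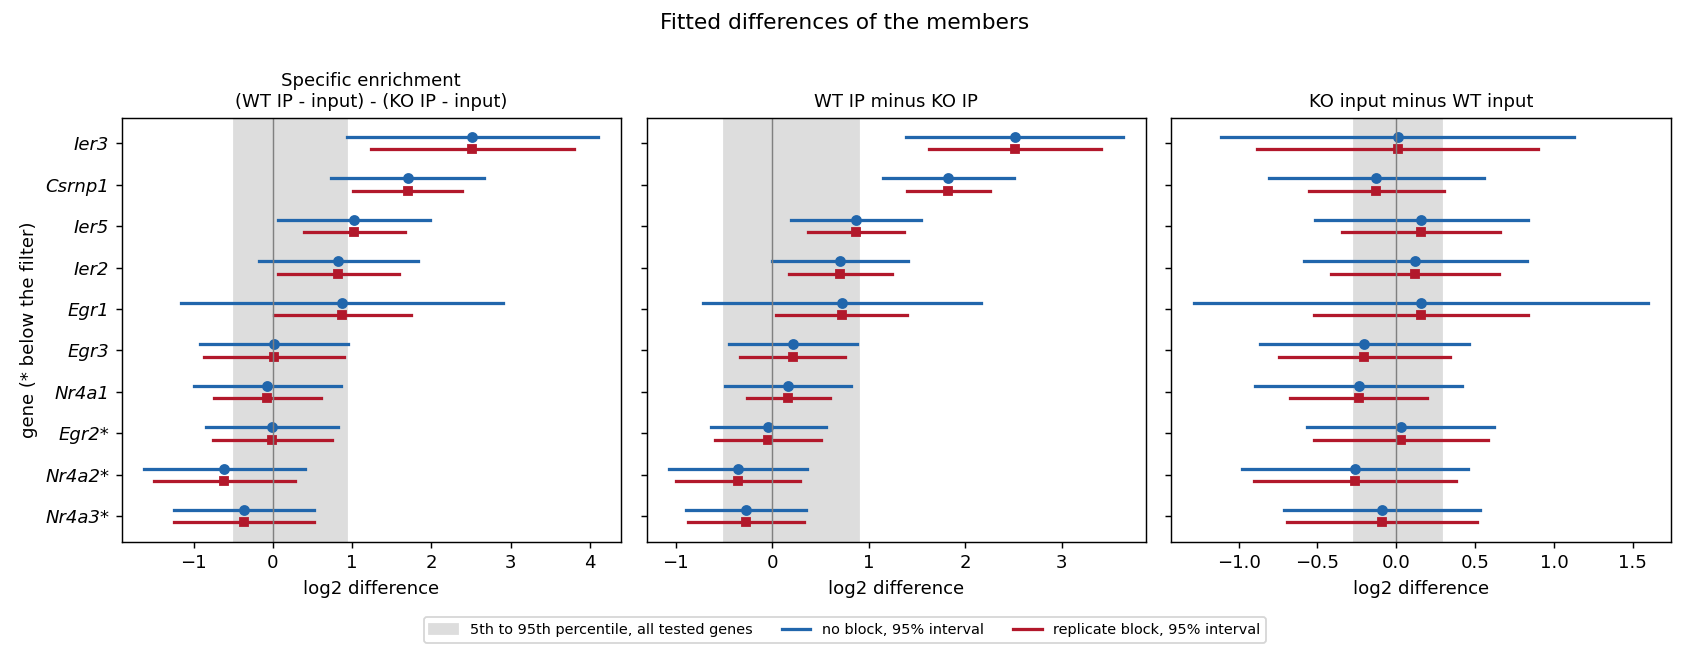
Fitted log2 differences of the 10 genes in 3 comparisons, with 95% intervals without a block (circles) and with the replicate block (squares). The grey band spans the 5th to 95th percentile of all tested genes. Ier3 and Csrnp1 lie to the right of the band in specific enrichment and in WT IP minus KO IP, Ier5 does so in specific enrichment, and all 10 genes have intervals that cross 0 in KO input minus WT input.

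Each precipitate was then set against the input of its own preparation. In WT, Csrnp1 was 1.50 ± 0.31 higher in the IP (SE; 2.83-fold), with differences of 1.34, 1.94 and 1.22. It did not pass without a block (adjusted p = 0.126) and rose with the preparation as a block (adjusted p = 0.0127). Ier3 was 1.35 ± 0.51 higher, with differences of 2.00, 1.89 and 0.15, and Ier5 was 0.73 ± 0.31 higher, with differences of 0.85, 0.63 and 0.71. Neither Ier3 (adjusted p = 0.375, and 0.0747 with the block) nor Ier5 (0.428, and 0.0586 with the block) passed. With the number blocked separately in IPs and inputs, Ier3 passed (adjusted p = 0.0240). That fit removes spread of IP minus input between numbers that the genotypes share, so this p-value does not measure it. Number 3 contributed little to the Ier3 value, with the highest of the 3 inputs (12.46) and the lowest of the 3 IPs (12.61).

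The WT differences were -0.37 for Ier2, -0.35 for Nr4a1 and 0.19 for Egr1, and none of them passed. Of the 7 tested members 5 were positive in WT, where 41.6% of all genes were, with a median of 0.62 against -0.11 over all genes. Egr3, which passed the filter by its IP values, was among the positive members, and the median was its value. By limma without a block 0 members were called, against 0.105% of all genes called higher. At an unadjusted p under 0.05 the members gave 3 higher and 0 lower, against 4.58% and 6.03% of all genes. With the block 1 member was called higher and 0 lower, against 2.41% and 4.61% of all genes. IP and input did not overlap for 3 members, each higher in WT IP, as in 7.72% of all genes.

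In the KO negative control 6 of the 7 tested members had negative IP minus input values, and Egr3 had a positive one. Negative values were common there, as only 34.1% of all genes were positive. Ier2 had IP minus input differences of -0.89, -1.55 and -1.14, a fitted value of -1.19 ± 0.32 (SE). It did not pass without a block (adjusted p = 0.236) and fell with it (adjusted p = 0.0326). Ier3 had -0.32, -1.58 and -1.62, a fitted value of -1.17 ± 0.51 (adjusted p = 0.433, 0.103 with the block, and 0.0378 with the number blocked separately in IPs and inputs). The last of these p-values leaves out spread of IP minus input between numbers that the genotypes share. Egr1 had -0.95, -0.46 and -0.64, a value of -0.68 ± 0.66 (adjusted p = 0.757, and 0.142 with the block). Csrnp1 (-0.20) and Ier5 (-0.29) stood close to the median of all genes in this comparison, which was -0.21. By limma without a block 0 members were called, and 0 of all genes. At an unadjusted p under 0.05 the members gave 0 higher and 2 lower, against 2.97% and 8.00% of all genes. With the block 1 of 7 was called lower, against 5.28% of all genes. IP and input did not overlap for Egr3, which was higher in KO IP, and for Ier2, which was lower, against 5.31% and 10.1% of all genes. The 7 tested members had a median of -0.29 in KO. Ier2 and Ier3 lay below the 5th percentile of all genes, which was -1.15, and ranked 411 and 443 from the lowest, while Egr3 ranked 534 from the highest. Egr3 passed the filter by its IP values, with a KO input mean of 5.40 under it. Its rank and lack of overlap are therefore no separate evidence of a rise.

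Egr2 and Nr4a3, below the filter, and Egr3, just above it, had positive IP minus input values in both genotypes. None passed without a block or with the preparation as the block. When the number was blocked separately in IPs and inputs, Egr3 passed in WT (adjusted p = 0.0252) and in KO (0.0278), and Nr4a3 passed in KO (0.0225). These p-values, too, leave out spread of IP minus input between numbers that the genotypes share. Egr2, which in nerve directs myelination, had 4.07, 4.33 and 4.76 in WT IP and 3.41, 3.96 and 3.82 in WT input. In KO it had 4.80, 4.14 and 4.34 in the IP and 3.68, 3.67 and 3.93 in the input, so that all 6 IP arrays lay above all 6 inputs. That held for 18.5% of the genes below the filter and for 1.72% of those above it. Nr4a3, the receptor also called NOR-1, had 5.96, 5.39 and 5.85 in WT IP against 5.44, 5.08 and 4.83 in WT input, and 5.57, 6.10 and 6.34 in KO IP against 5.26, 5.05 and 4.77 in KO input. Its IP minus input difference was 0.62 ± 0.29 in WT (adjusted p = 0.376) and 0.98 ± 0.29 in KO (adjusted p = 0.0928, and 0.0513 with the block).

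Egr3 likewise had 0.62 ± 0.30 in WT and 0.61 ± 0.30 in KO, with inputs of 5.52, 5.33 and 5.36 in KO and 5.76, 5.62 and 5.44 in WT. Nr4a2, also called NURR1, had -0.11 in WT and 0.50 in KO, with IP values of 5.39, 5.34 and 5.09 in WT and of 6.31, 4.92 and 5.64 in KO. Its inputs were 5.22, 5.21 and 4.95 in KO and 5.40, 5.68 and 5.08 in WT, and the groups overlapped. The dim end of the arrays moved the same way. The 10th percentile of an array lay between 3.77 and 3.90 in WT IP, between 3.84 and 4.26 in KO IP and between 3.42 and 3.53 in the inputs. Its part in the values of these genes was not tested.

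**Figure D3:**
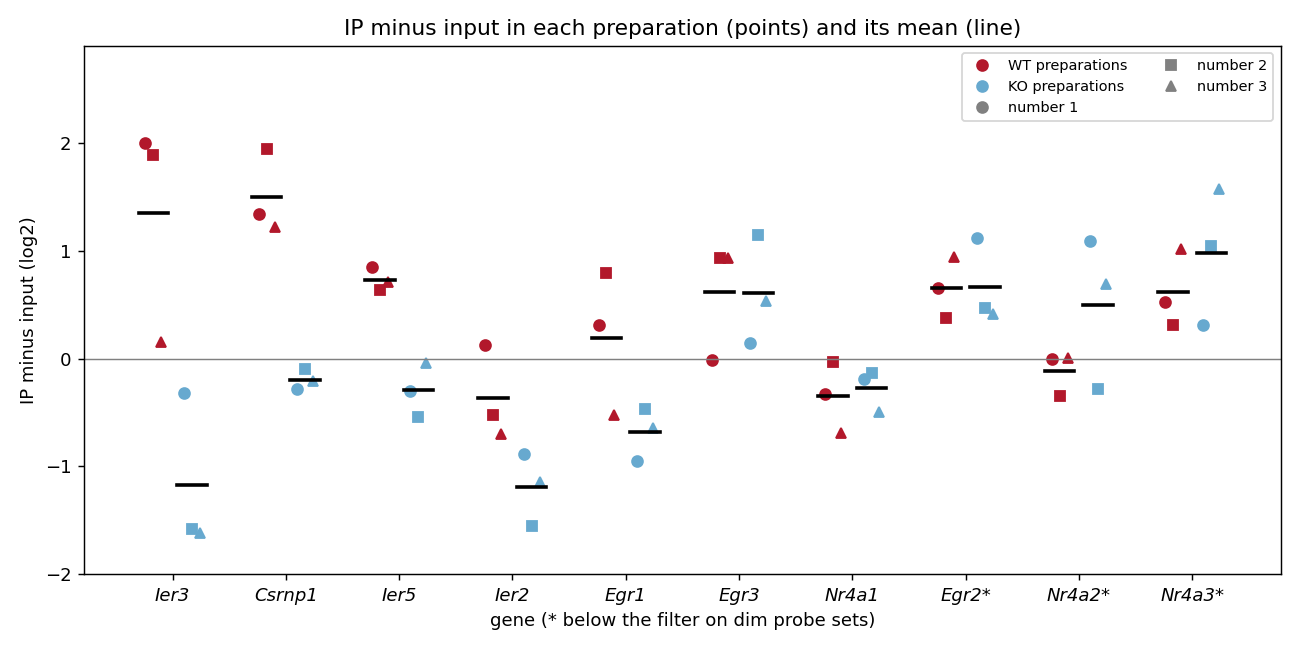
IP minus input (log2) in each preparation, with WT points left of KO points for each of the 10 genes and a line at the mean of 3 preparations. Ier3, Csrnp1 and Ier5 have 3 WT points above 0 and 3 KO points below 0, while the points of Egr3, Egr2 and Nr4a3 lie mostly above 0 in both genotypes.

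Specific enrichment is the IP minus input difference of WT less that of KO, and it asks which transcripts were enriched beyond the negative control. Ier3 had the largest value of the members, 2.52 ± 0.73 (SE; 5.73-fold), with 2.32, 3.47 and 1.77 within numbers and a rank of 17th from the highest. Csrnp1 had 1.70 ± 0.44 (3.25-fold), with 1.63, 2.04 and 1.43, and Ier5 had 1.03 ± 0.44 (2.04-fold), with 1.15, 1.18 and 0.75. Ier2 had 0.83 ± 0.46, with 1.01, 1.02 and 0.45. These 4 members had no overlap between the WT and KO differences and were higher in WT, and 0 members were lower without overlap, against 7.94% and 2.58% of all genes.

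The composition of these values differed between the genes. For Csrnp1 nearly all of the value came from WT, with 1.50 in WT against -0.20 in KO. For Ier3 both genotypes contributed, with 1.35 in WT against -1.17 in KO. For Ier2 the value came from KO, with -0.37 in WT against -1.19 in KO.

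No member was called in specific enrichment. The adjusted p was 1.0 for all 10 without a block, and with the block it was 0.130 for Csrnp1, 0.212 for Ier3 and 0.332 for Ier5. At an unadjusted p under 0.05, 3 members were higher and 0 lower, against 1.83% of all genes higher, and 0.0105% of all genes were called higher (0.0211% with the block). When the number was blocked separately in IPs and inputs, Csrnp1 passed (adjusted p = 0.0399). Egr1 had 0.88 ± 0.93, with 1.26, 1.25 and 0.12 within numbers. Egr3 (0.01), Nr4a1 (-0.07) and Egr2 (-0.01) stood near 0, with 95% intervals of -0.93 to 0.95, -1.0 to 0.85 and -0.85 to 0.83. Nr4a3 had -0.36 and Nr4a2 -0.61.

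The comparison of the inputs asks whether loss of Cnot6l changed the steady-state level of these transcripts. No member was called in KO input against WT input, with 0 of 7 passing by limma, 0 at an unadjusted p under 0.05 and 0 with the block, and the groups overlapped for all 7. All genes gave 0 calls in either direction, and at the unadjusted threshold 0.0316% were higher and 0.0211% lower. The differences of the 7 tested members ran from -0.24 for Nr4a1 to 0.16 for Ier5 and Egr1. The 95% interval of Egr1 ran from -1.28 to 1.60, so the lack of calls does not show that levels were unchanged. For Ier3 the difference was 0.01 (95% interval -1.11 to 1.13) and for Csrnp1 -0.13 (95% interval -0.81 to 0.55). An input difference as large as the WT IP minus KO IP difference of these 2 genes thus lies outside both intervals.

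The inputs of several members differed more between replicate numbers than between genotypes. Egr1 had 11.06, 10.54 and 12.38 in KO input and 10.30, 10.81 and 12.39 in WT input, so that number 3 was highest in both genotypes. Nr4a1 was likewise highest in number 3, with 7.44, 6.90 and 7.69 in KO input and 7.54, 7.24 and 7.96 in WT input, as were Ier2, Ier3 and Csrnp1. The SD of the means of the 3 numbers in the inputs was 0.99 for Egr1, 0.57 for Ier3 and 0.38 for Nr4a1, against 0.12 for Egr3 and 0.18 for Ier5. Nr4a3 and Nr4a2 had their lowest input values in number 3 of both genotypes. What a number stands for is not stated.

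**Figure D4:**
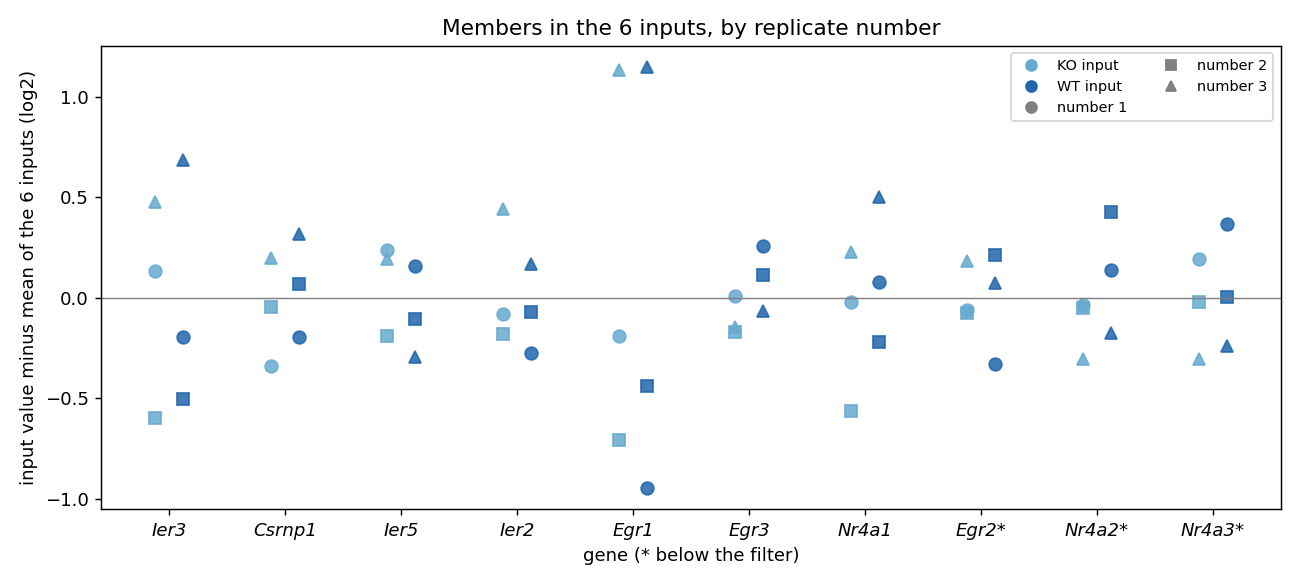
Input values of the 10 genes as the log2 difference from the mean of the 6 inputs, with KO input left of WT input and the replicate number as shape. Egr1 has the widest spread, and its number 3 points lie above the others in both genotypes.

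The members did not share 1 profile over the 12 arrays. Ier3 and Ier5 had a Pearson r of 0.81, Ier3 and Csrnp1 one of 0.69 and Ier5 and Csrnp1 one of 0.61, given as descriptions over arrays that share numbers and fractions. Egr3 had an r of -0.71 with Ier2. The genes most like the mean centred profile of the 7 tested members, out of 9489 others, were Ice1 (r = 0.93), a subunit of the little elongation complex, and Ankrd1 (r = 0.93), an ankyrin repeat protein of the nucleus and sarcomere. They were followed by Brpf1 (r = 0.93), a scaffold of a histone acetyltransferase complex, Ppp1r15a (r = 0.92), a phosphatase subunit of the stress response, and Epc1 (r = 0.92), a subunit of the NuA4 acetyltransferase complex. Ankrd1 averaged 10.31 in WT IP, 7.97 in KO IP, 8.87 in KO input and 9.23 in WT input.

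Of the relatives and partners of the members, 7 of 11 were tested and 0 were called in any of the 5 comparisons without a block. Nab2, an EGR corepressor that EGR proteins themselves induce, averaged 8.12 in WT IP, 6.54 in KO IP, 6.48 in KO input and 6.52 in WT input. Its WT IP minus KO IP difference was 1.58 ± 0.42 (SE; adjusted p = 0.258, and 0.0116 with the block), and its WT IP minus WT input difference was 1.61 (adjusted p = 0.194, and 0.0151 with the block). Its paralog Nab1 was lower in both precipitates than in their inputs with the block, by -0.86 in WT (adjusted p = 0.0386) and by -1.27 in KO (adjusted p = 0.0227). Csrnp2, a paralog of Csrnp1, had a specific enrichment of 1.08 ± 0.72, and Rxrg, a partner receptor of NR4A1 and NR4A2, had -0.26, and neither passed.

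Upstream factors and targets gave few calls. Of 12 tested factors that signal to or bind immediate early promoters, 0 were called without a block, with a median specific enrichment of 0.24 against 0.05 over all genes. The largest values were those of Crem (1.12), a cAMP responsive factor, the SRF coactivator genes Mrtfb (0.58) and Mrtfa (0.57), and Srf itself (0.43). With the block Crem passed as higher in WT IP than in KO IP (1.03, adjusted p = 0.0464), and Atf1, a CREB relative, passed as higher in WT IP than in WT input (1.09, adjusted p = 0.0257). Atf1 was also higher in the KO negative control, by 0.76 in KO IP against KO input (adjusted p = 0.0625 with the block). Its WT IP minus KO IP difference was 0.07. Of 9 tested genes known as targets of EGR or NR4A factors, Nab2 among them, 0 were called without a block. The lipogenic factor gene Srebf1 was higher in WT IP than in WT input by 1.0 on the log2 scale and passed with the block (adjusted p = 0.0388). The specific enrichment was 0.54 for Srebf1, 0.48 for the glycolytic gene Eno3 and -0.85 for the growth factor gene Tgfb1, and none passed.

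Other immediate early genes are given for comparison, as a list chosen with results of these data known. Of 45 tested genes 42 had positive specific enrichment, with a median of 1.14, against 6 of 7 tested members and a median of 0.88. Over all genes 55.8% were positive, with a median of 0.05. In WT IP against KO IP 6 of 45 were called higher and 0 lower, and 22 and 0 with the block, where 0.253% of all genes were called higher without the block and 2.33% with it. They were Dusp1, a MAP kinase phosphatase (1.91), Zfp36, which encodes the mRNA decay factor tristetraprolin (3.33), Btg2, an antiproliferative gene whose protein binds CCR4-NOT (2.26), Socs3, a feedback inhibitor of cytokine signalling (2.20), Nfkbia, the NF-κB inhibitor (3.09), and Irf1, an interferon regulatory factor (2.01). In WT IP against WT input 4 were called higher, Dusp1, Socs3, Nfkbia and Irf1 (16 with the block, against 0.105% and 2.41% of all genes), and in KO IP against KO input 0 were called (6 lower with the block, against 5.28% of all genes). Between the inputs 0 were called, with or without the block.

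**Figure D5:**
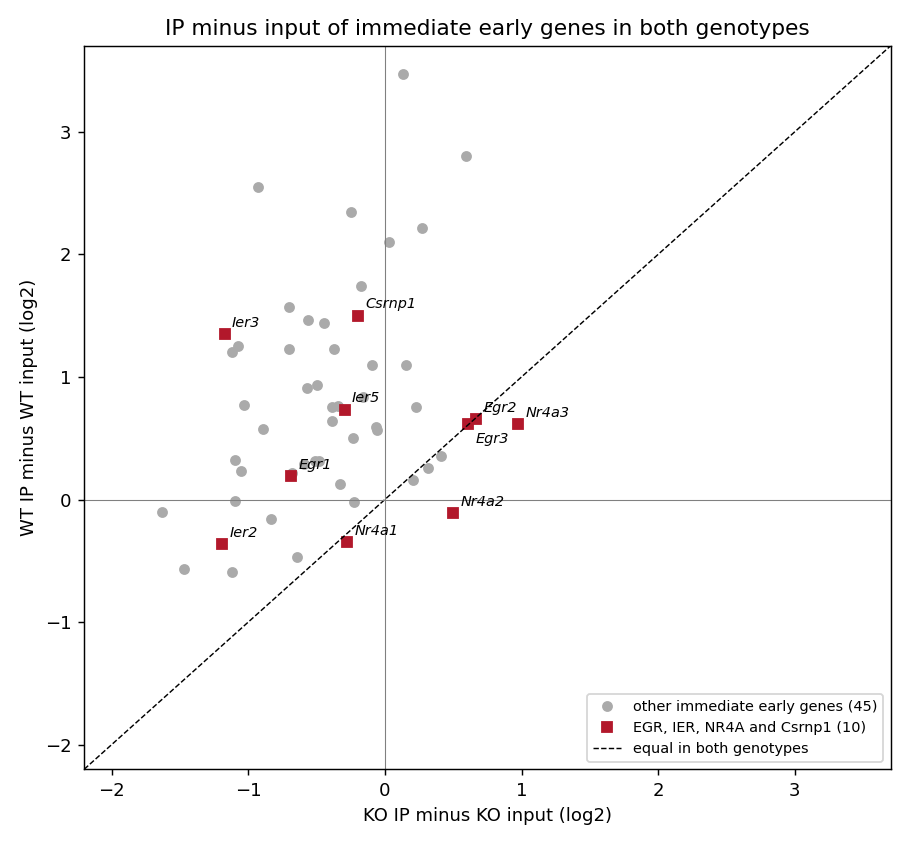
WT IP minus WT input against KO IP minus KO input (log2) for the 10 genes (squares) and 45 other immediate early genes (circles). The dashed line marks equal differences, and Ier3, Csrnp1, Ier5, Egr1 and Ier2 lie above it with most of the circles, while Egr2, Egr3 and Nr4a1 lie on or near it and Nr4a2 and Nr4a3 below it.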

How the data were processed

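RNA of mouse primary hepatocytes was hybridised to 12 Affymetrix arrays, 1 sample each, grouped by their titles. The authors deposited log2 values, 1 per probe set and array. How background, scaling and probe summary were handled is not stated. Of 16539 probe sets, 64 were controls, 15780 carried 1 gene symbol and 695 were unnamed here. The number of arrays limits the precision, and p-values measure the spread between these samples, since separate animals are not stated beyond the word biological.

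The 4 group means were fitted with limma 3.58.1 in R 4.3.3 (8 residual degrees of freedom), and the script was tested on simulated data. Replicate numbers pair the samples: deviations from group means correlated at 0.453 to 0.936 across genes in all 18 pairs of like-numbered arrays, and at -0.711 to 0.0685 otherwise. Centring on group means pushes the latter down and widens this contrast. Without centring, inputs of the same number correlated at 0.983 to 0.990 between genotypes. Inputs of 1 genotype with different numbers correlated at 0.862 to 0.957. IP and input of 1 number and genotype share a preparation, per the series' design text, and the pairing between genotypes rests on this check. The replicate block is the preparation for IP against input and for specific enrichment, and the number between genotypes.

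All 10 genes are named with every array. From other lists the called genes are named, or else up to 4 with the largest absolute specific enrichment, and so are the 5 genes most alike in profile; list genes called with the block alone were added after their values were seen. The members and lists were chosen with earlier results of these data known. Alternatives were quantile normalization, no filter, fits on the arrays of 1 comparison, an intensity trend, the blocks and leaving out each array.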

Additional observations from a re-analysis of the deposited data

Results flagged for a closer look

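For Ier3, Csrnp1 and Ier5 every WT preparation had the opposite sign to every KO preparation, with the IP above the input in 3 of 3 WT preparations and below it in 3 of 3 KO preparations. The share of all genes with such a split was not counted. Over all genes, 41.6% had positive fitted IP minus input values in WT and 34.1% in KO, so values below 0 were common in KO. The difference between the genotypes was 2.52 for Ier3, 1.70 for Csrnp1 and 1.03 for Ier5 on the log2 scale. It was tested as specific enrichment by limma and did not pass for any of these genes, without a block (adjusted p = 1.0 for each) or with the replicate block (0.212, 0.130 and 0.332 in the same order). In KO IP against KO input none of them passed without a block (adjusted p = 0.433 for Ier3, 0.861 for Csrnp1 and 0.775 for Ier5). The KO values of Csrnp1 (-0.20) and Ier5 (-0.29) lay near the median of all genes (-0.21), and that of Csrnp1 was 0.085 after quantile normalization.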

How the results depend on the processing

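The block moved the counts of calls most. Over all genes, calls in specific enrichment numbered 1 without a block, 2 with the replicate block and 34 when the number was blocked separately in IPs and inputs. In WT IP against WT input they numbered 10, 667 and 2189, in WT IP against KO IP 24, 233 and 380, and in KO IP against KO input 0, 570 and 2117. For IP against input, the separate blocks remove spread between numbers that the genotypes share, so those p-values do not measure it. Among the 7 tested members the same 3 fits called 0, 0 and 1 in specific enrichment, 0, 1 and 3 in WT IP against WT input, 1, 2 and 2 in WT IP against KO IP, and 0, 1 and 3 in KO IP against KO input. Quantile normalization gave 16 calls over all genes in WT IP against WT input, and fits on the arrays of 1 comparison gave 1 there and 0 in WT IP against KO IP. Without the filter 52 genes were called in KO IP against KO input. The member call in WT IP against KO IP, Csrnp1, became 0 members with quantile normalization (adjusted p = 0.0526), with an intensity trend (0.0511) and on the 6 arrays alone (0.505), and 0 to 1 members when 1 array was left out. Leaving out 1 array gave 0 to 4 calls over all genes in specific enrichment, 2 to 14 in WT IP against WT input, 4 to 16 in WT IP against KO IP and 0 to 2 in KO IP against KO input.

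Values near 0 changed sign. After quantile normalization Egr2 had 0.17 in specific enrichment and 0.12 in WT IP against KO IP, and Csrnp1 had 0.085 in KO IP against KO input. With 1 array left out, specific enrichment ran from -0.20 to 0.18 for Egr2, from -0.16 to 0.25 for Egr3 and from -0.24 to 0.15 for Nr4a1. WT IP minus WT input ran from -0.24 to 0.81 for Egr1 and from -0.26 to 0.037 for Nr4a2, and WT IP minus KO IP from -0.23 to 0.15 for Egr2. KO input minus WT input ran from -0.37 to 0.77 for Egr1, -0.13 to 0.14 for Egr2, -0.069 to 0.24 for Ier2, -0.24 to 0.35 for Ier3, -0.23 to 0.072 for Nr4a3 and -0.26 to 0.013 for Csrnp1. Specific enrichment stayed positive under all 17 alternatives for Ier3 (2.01 to 3.01), Csrnp1 (1.48 to 1.91), Ier5 (0.77 to 1.21), Ier2 (0.53 to 1.04) and Egr1 (0.35 to 1.49). A fit on the arrays of 1 comparison was not run for specific enrichment, which needs all 12. Apart from the calls with a block that the report gives, the replicate block changed no other call of a member. The causes of these changes were not tested.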
